A study of Mus musculus with 8 samples.

Results

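Interferon-stimulated genes, 56 of them listed by name, were followed through 8 RNA-seq libraries of mouse CD4 T cells that carried a Bach2 vector or an empty vector. The members were chosen by name, as genes known to be induced by interferons, with the guanylate-binding proteins (GBP genes) kept apart from the genes best known from type I interferon. The count files list 39179 genes, of which 54 are members: 6 GBP genes, 4 immunity-related GTPases (IRG genes) and 44 others. The 44 are called type I interferon genes here as the name of the set, not as a reading of which interferon acted. Counts of Gbp5 and Gbp6 were not analysed here. All 54 passed the filter on low counts and were tested, and together they held 1.08% to 1.26% of the counts of a library.

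The cells were Smarta T cells, which carry a transgenic receptor for a viral peptide, from mice crossed to the CreERT2 line, a Cre recombinase that tamoxifen activates and whose promoter the labels do not name. They were transduced with a retrovirus holding an inducible Bach2 gene or with the empty control vector (EV), and given to C57BL/6 mice, which were immunized subcutaneously with nitrophenol and the GP61-80 peptide carried by mouse serum albumin. Tamoxifen was injected into the peritoneum of the hosts on day 5, and 18 hours later Thy-1.1+ CD44hi cells were sorted from pooled inguinal lymph nodes as follicular helper T cells (Tfh, CXCR5+ PD-1+) or as other activated cells (non-Tfh, CXCR5- PD-1-). The groups, of 2 libraries each, were Bach2 Tfh, EV Tfh, Bach2 non-Tfh and EV non-Tfh. CreERT2, the transgenic receptor, tamoxifen and the transduction were common to all of them. The age of the mice and whether replicates came from separate animals are not given in the labels, so a p-value measures only the spread between these libraries. In sorted bulk samples, fewer cells that express a gene and less RNA per cell cannot be told apart.

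Type I interferons bind the receptor chains Ifnar1 and Ifnar2, whose kinases Jak1 and Tyk2 activate a complex that includes Stat2 and Irf9 and binds the interferon-stimulated response element (ISRE) of antiviral genes. Interferon-gamma, which helper T cells themselves make, acts through Ifngr1, Ifngr2, Jak1 and Jak2 on genes with a gamma-activated site (GAS), and also through Irf1. The GBP and IRG genes answer strongly to interferon-gamma, and most other members to type I interferon, with a wide overlap. Bach2 is a transcriptional repressor of lymphocytes that binds, with small Maf proteins, Maf recognition elements close in sequence to AP-1 sites.

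The deposited values were counts, given here as CPM (counts per 1000000 counts of the library, after TMM normalization). Library totals ran from 7862879 to 9889859 counts, and a count of 0 allows a level of up to 0.303 to 0.382 CPM (3 counts, counting error only). Bach2 itself had 121 and 135 CPM in Bach2 Tfh cells, against 11.2 and 14 CPM in EV Tfh cells, and 131 and 158 CPM in Bach2 non-Tfh cells, against 24.9 and 28.9 CPM in EV non-Tfh cells. Cxcr5, which defines the Tfh gate, had 577 to 815 CPM in the Tfh libraries and 17.4 to 28.3 CPM in the non-Tfh libraries. The CD4 T cell markers Cd3e, Cd3g, Cd4, Trac and Thy1 summed to 7405 to 10815 CPM, against at most 20.4 CPM for the CD8 T cell markers. The median ratio between the replicates of a group, over the 49 or 50 members with a mean of at least 10 CPM, was 1.09 to 1.14. In EV Tfh cells, replicate 2 was the higher one for 41 of 50 members. In Bach2 Tfh cells, Rsad2, Isg15, Usp18, Ifih1, Ifit3, Rtp4 and Ifit1 were more than 1.3-fold lower in replicate 2 than in replicate 1.

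With the Bach2 vector, interferon-stimulated genes were lower in part and none rose past the threshold. Averaged over Tfh and non-Tfh cells, 11 of 54 members fell and 0 rose, where 2.9% of all 11475 tested genes fell, 2.37% rose and 5.27% changed in either direction (edgeR's quasi-likelihood test, Benjamini-Hochberg adjusted p below 0.05). Values with a standard error (SE) are log2 fold changes, Bach2 over EV, or log2 differences, Tfh minus non-Tfh. They were Oasl2, Ly6a, Isg20, Oas3, Gbp3, Rtp4, Gbp2, Dhx58, Ifit3, Isg15 and Gbp7, with log2 fold changes from -0.97 to -0.30. The median log2 fold change of the 54 members was -0.15, beside a median within 0.01 of 0 over all tested genes. At an unadjusted p below 0.05, 2 members were higher (3.7%, beside 9.84% of all tested genes) and 20 lower (37%, beside 10.4%). DESeq2 called 13 members lower and limma-voom 10, and neither called any higher. Over all genes, DESeq2 called 344 lower and 323 higher, and limma-voom 310 lower and 249 higher. Without the filter on low counts, 17 members were called lower and 2 higher, among 1255 genes called in all against 605 with it. For the fits with a library left out, which follow, the count over all genes is not given here. Leaving out Bach2 Tfh replicate 1 gave 17 called members, 16 of them lower. The count was 7 without EV non-Tfh replicate 1, Bach2 Tfh replicate 2 or Bach2 non-Tfh replicate 2, and 6 without EV non-Tfh replicate 2. Oasl2, Ly6a, Isg20, Oas3, Gbp3 and Rtp4 kept their call in all 13 other settings run.

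Within 1 cell type fewer members passed. In Tfh cells 3 of 54 fell (Oasl2, Ly6a and Isg20) and 0 rose, beside 1.16% of all tested genes that fell, 0.549% that rose and 1.71% called in either direction. In non-Tfh cells 4 of 54 fell (Oasl2, Ly6a, Oas3 and Gbp3) and 0 rose, beside 0.619% that fell, 0.253% that rose and 0.871% called in either direction. The median log2 fold change of the members was -0.13 in Tfh and -0.14 in non-Tfh cells. Unadjusted p was below 0.05 for 15 lower members (27.8%, beside 8.29% of all tested genes) and 3 higher ones (5.56%, beside 7.6%) in Tfh cells. In non-Tfh cells it was so for 14 lower members (25.9%, beside 5.1%) and 1 higher member (1.85%, beside 5.25%). Both Bach2 libraries lay below both EV libraries for 22 members in Tfh cells, where 22.9% of all tested genes did so, and for 29 members in non-Tfh cells, where 21.3% did. They lay above for 7 members in Tfh cells (21.7% of all tested genes) and for 1, Parp14, in non-Tfh cells (20.9%). Without the filter on low counts, 12 members were called lower and 1 higher in Tfh cells and 11 lower in non-Tfh cells, and the counts over all genes were larger too, at 736 and 332 against 196 and 100. Fitting only the non-Tfh groups called 7 members lower. Without EV Tfh replicate 2 or Bach2 Tfh replicate 2, 0 members were called in Tfh cells, and 5 and 6 without replicate 1 of EV and of Bach2. In non-Tfh cells, 0 were called without either EV library, 1 without Bach2 replicate 1 and 2 without Bach2 replicate 2.

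**Figure D1:**
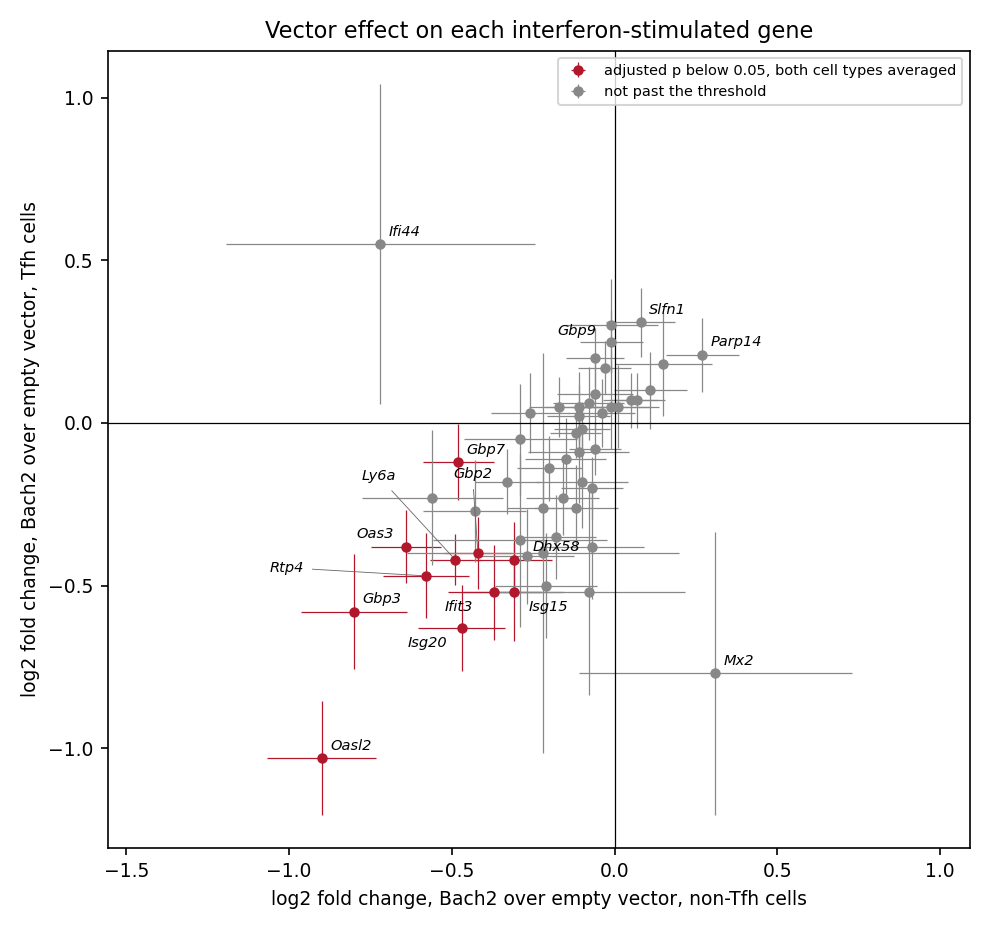
Log2 fold change of Bach2 over EV for each of the 54 tested members, in non-Tfh cells (horizontal axis) and in Tfh cells (vertical axis), with bars of 1 standard error. The 11 members that fell with both cell types averaged (red) lie at the lower left, Oasl2 farthest out at -0.90 and -1.03, and Parp14, Slfn1 and Gbp9 are among those above 0 in Tfh cells.

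The difference between the vector effects of the cell types was tested as an interaction. No member passed by edgeR (0 of 54, beside 0% of all tested genes), and DESeq2 and limma-voom also called 0 members. Over all genes, DESeq2 called 4 higher and 0 lower, and limma-voom called 0. At an unadjusted p below 0.05, edgeR gave 1 higher and 0 lower members (1.85% and 0%, beside 2.19% and 2.51% of all tested genes). The member was Gbp7, whose vector effect in Tfh minus that in non-Tfh cells was 0.36 on the log2 scale (SE 0.159, adjusted p = 0.998). Of 54 members, 33 (61.1%) were negative in both vector effects, where 32.7% of all tested genes were. Tfh and non-Tfh effects come from different libraries, but whether libraries of the same vector share animals is not given in the labels. The deviations of replicate 1 from its group mean correlated at 0.208 between the EV groups and 0.24 between the Bach2 groups. Between groups of different vectors the correlation was -0.00413 to 0.129. The effects may thus not be independent.

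Many members, 5 of the 6 GBP genes among them, were lower in Tfh cells than in non-Tfh cells. Among EV cells, 18 of 54 members were lower in Tfh and 1, Gbp9, was higher, where 11.3% of all tested genes were lower, 10.6% higher and 21.9% called in either direction. Among Bach2 cells, 14 were lower in Tfh and 3 (Gbp9, Rsad2 and Slfn2) were higher, where 12.7% were lower, 11.6% higher and 24.4% called in either direction. The median log2 difference, Tfh minus non-Tfh, was -0.19 with EV and -0.16 with Bach2. Both Tfh libraries were below both non-Tfh libraries for 30 members with EV (30.9% of all tested genes) and 28 with Bach2 (30.5%), and above them for 9 with EV (31.3%) and 8 with Bach2 (29.3%). Without EV Tfh replicate 1 or EV non-Tfh replicate 2 the EV count dropped to 8 members, and without Bach2 non-Tfh replicate 2 the Bach2 count was 11. Averaged over the 44 type I interferon members, the centred log2 level was -0.16 and -0.18 in Bach2 Tfh, -0.08 and 0.09 in EV Tfh, 0.01 and -0.03 in Bach2 non-Tfh and 0.19 and 0.15 in EV non-Tfh libraries. For the 6 GBP genes it was -0.40 and -0.36 in Bach2 Tfh, -0.39 and -0.18 in EV Tfh, 0.23 and 0.16 in Bach2 non-Tfh and 0.42 and 0.52 in EV non-Tfh libraries. Both sets were thus highest in EV non-Tfh cells, and the GBP genes separated the cell types without overlap.

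**Figure D2:**
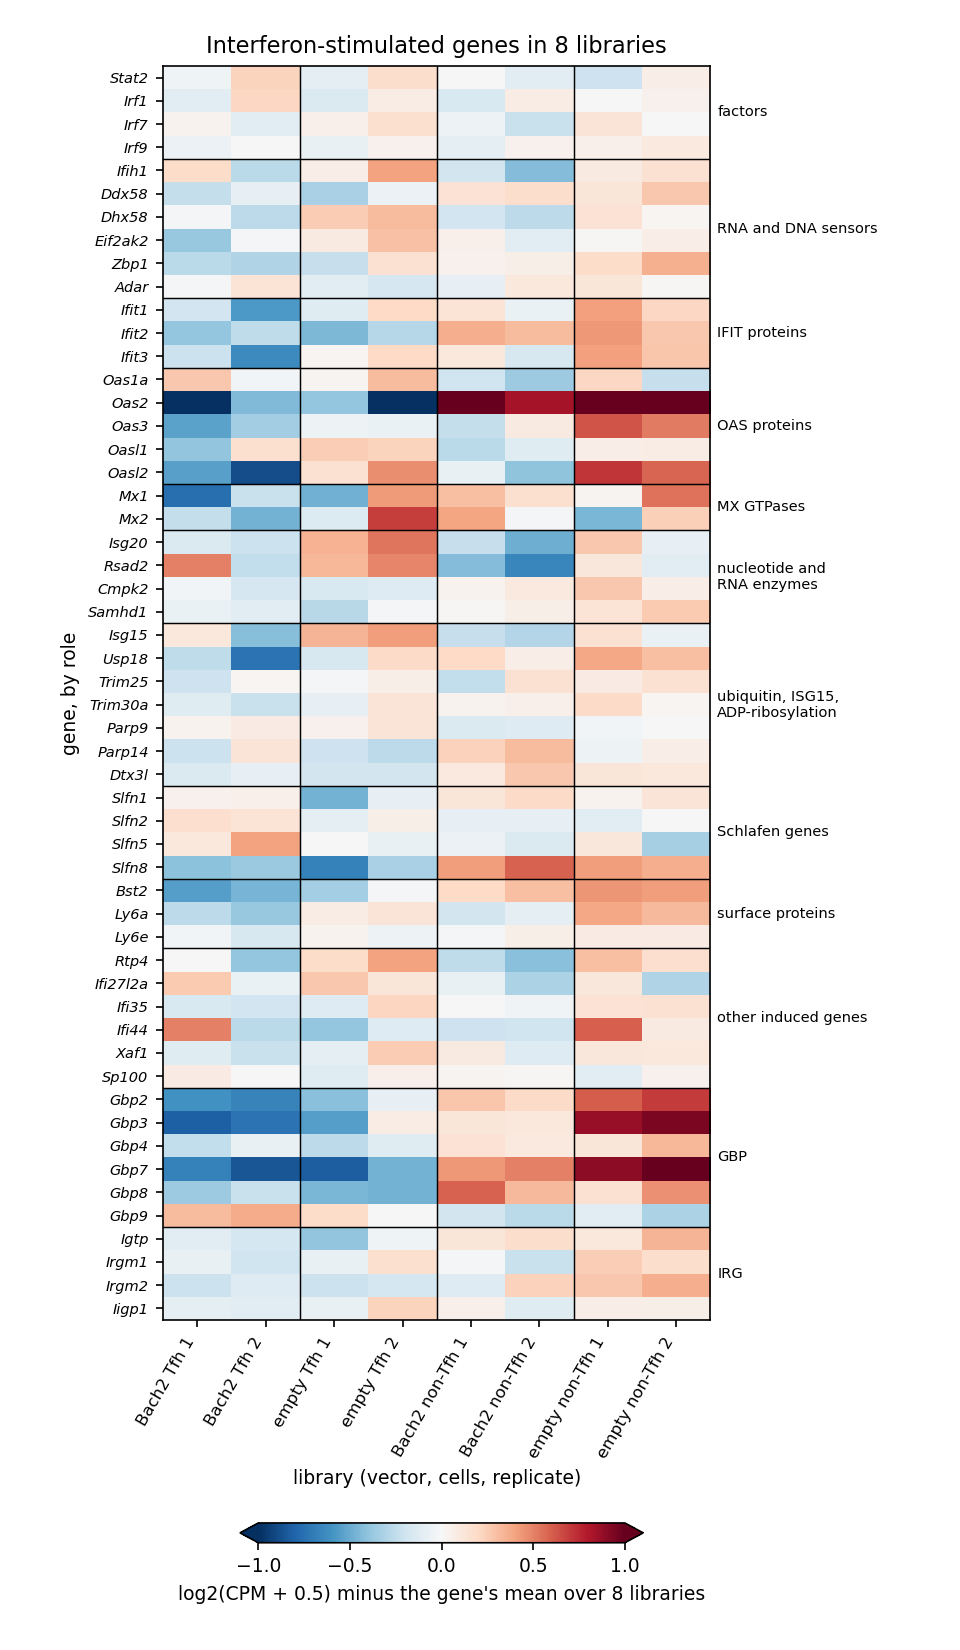
Log2(CPM + 0.5) of the 54 members in the 8 libraries, centred on each gene's mean, in the order of their roles (colour scale cut at -1 and 1). Oasl2, Ly6a, Isg20 and Oas3 are paler or bluer in the Bach2 columns, and Gbp2, Gbp3 and Gbp7 are blue in Tfh and red in EV non-Tfh columns.

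RefSeq windows of 300 bases (GRCm38.p6, 250 before to 50 after each start, read on the gene's strand) were found for 39 members and searched on both strands for the ISRE (GAAA, any 2 bases, GAAA), the GAS (TTCNNNGAA), the AP-1 and Maf core (TGANTCA) and the Maf-extended core (TGC directly before TGANTCA, so that it contains the shorter core). An ISRE match stood in 21 of the 39 (53.8%), where 3.99% of all 27025 genes of the table had one. A GAS match stood in 13 (33.3%, beside 9.55%), TGANTCA in 8 (20.5%, beside 8.97%) and the Maf-extended core in 1, Irgm1 (2.56%, beside 0.492%). ISRE matches overlapped each other in 5 members and overlapped a GAS match in 1, Bst2. Of the 11 members that fell, 8 had a window, with an ISRE match in 6, a GAS match in 2 and TGANTCA in 3. The windows of 3 type I interferon members among them are printed here 5′ to 3′, with ISRE, GAS and TGANTCA matches in capitals, since they show how these elements lie near the start. They belong to Isg15 (chr4:156200769-156201068, minus strand), Ifit3 (chr19:34583279-34583578, plus strand) and Oas3 (chr5:120777610-120777909, minus strand).
Isg15: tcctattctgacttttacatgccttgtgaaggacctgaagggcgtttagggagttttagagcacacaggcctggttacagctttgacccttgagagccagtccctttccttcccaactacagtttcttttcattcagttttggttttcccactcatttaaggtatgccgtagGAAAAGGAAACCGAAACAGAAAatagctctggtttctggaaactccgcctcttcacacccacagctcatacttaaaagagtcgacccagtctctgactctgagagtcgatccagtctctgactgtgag
Ifit3: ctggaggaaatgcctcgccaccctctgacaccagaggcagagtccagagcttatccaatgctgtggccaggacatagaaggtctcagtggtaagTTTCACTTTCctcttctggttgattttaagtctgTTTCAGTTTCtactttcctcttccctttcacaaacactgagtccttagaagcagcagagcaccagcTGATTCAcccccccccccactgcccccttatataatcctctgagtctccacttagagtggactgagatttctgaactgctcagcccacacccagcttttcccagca
Oas3: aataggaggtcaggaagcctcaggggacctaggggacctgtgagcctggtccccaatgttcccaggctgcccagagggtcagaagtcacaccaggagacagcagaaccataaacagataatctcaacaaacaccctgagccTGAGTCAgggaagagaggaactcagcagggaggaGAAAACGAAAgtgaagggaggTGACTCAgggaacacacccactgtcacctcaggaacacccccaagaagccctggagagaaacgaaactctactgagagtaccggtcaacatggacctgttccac
Isg15 has 3 ISRE matches, each sharing 4 bases with the next, that begin 78, 72 and 66 bases before the start, and no TGANTCA. Ifit3 has separate ISRE matches that begin 156 and 122 bases before the start, and a TGANTCA 56 bases before it. Oas3 has a single ISRE match 75 bases before the start, between a TGANTCA at 109 and another at 54 bases. A match describes the letters of the window only, not a bound site.

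None of the 4 transcription factors among the members passed the test for the vector. Stat2 had 93.6 and 113 CPM in Bach2 Tfh and 90.2 and 109 CPM in EV Tfh cells, and 96.5 and 89 CPM in Bach2 non-Tfh and 83.4 and 101 CPM in EV non-Tfh cells. Irf9, the DNA-binding partner of Stat2, had 183 and 190 CPM in Bach2 Tfh and 181 and 197 CPM in EV Tfh cells, and 179 and 197 CPM in Bach2 non-Tfh and 198 and 204 CPM in EV non-Tfh cells. These ranges overlapped between vectors for Stat2 in both cell types and for Irf9 in Tfh cells. Irf1, an activator of interferon-gamma targets, had 194 and 242 CPM in Bach2 Tfh and 189 and 220 CPM in EV Tfh cells, and 188 and 220 CPM in Bach2 non-Tfh and 210 and 215 CPM in EV non-Tfh cells. Irf7, which amplifies type I interferon production, had 118 and 107 CPM in Bach2 Tfh and 119 and 129 CPM in EV Tfh cells, and 111 and 98.8 CPM in Bach2 non-Tfh and 126 and 115 CPM in EV non-Tfh cells, lower in both Bach2 libraries than in both EV libraries within each cell type. Irf7 missed the threshold averaged over both cell types (-0.17 with SE 0.0703, adjusted p = 0.185), and none of the 4 factors passed in any of the 6 comparisons, with log2 differences from -0.20 to 0.15. Reads of Irf7 and Irf9 may be shared with the overlapping genes Phrf1 and Rnf31.

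Of 6 genes grouped as RNA and DNA sensors, the RNA editor Adar among them, Dhx58 fell. Dhx58 (LGP2), a helicase that tunes the RNA sensors, had 58.7 and 49.3 CPM in Bach2 Tfh and 70.6 and 73.9 CPM in EV Tfh cells, and 51.7 and 49.3 CPM in Bach2 non-Tfh and 65.7 and 60 CPM in EV non-Tfh cells. All 4 Bach2 libraries were below all 4 EV libraries, and the averaged log2 fold change was -0.37 with SE 0.0832, adjusted p = 0.0218. That call was lost without EV Tfh replicate 2, either EV non-Tfh library, Bach2 Tfh replicate 2 or Bach2 non-Tfh replicate 2 (adjusted p = 0.0657 to 0.103). Adar, which edits double-stranded RNA and had the most counts of the group, had 237 and 263 CPM in Bach2 Tfh and 222 and 213 CPM in EV Tfh cells, and 226 and 257 CPM in Bach2 non-Tfh and 261 and 242 CPM in EV non-Tfh cells. The vectors did not overlap in Tfh cells, with Bach2 above EV, nor did the cell types with EV, with Tfh below non-Tfh. Adar passed in no comparison. Ifih1 (MDA5) missed the threshold averaged (-0.35 with SE 0.112, adjusted p = 0.0984). Ddx58 (RIG-I) was lower in Tfh cells with EV (-0.39 with SE 0.104, adjusted p = 0.016; lost without EV Tfh replicate 1 or EV non-Tfh replicate 2, adjusted p = 0.17 to 0.197) and with Bach2 (-0.31 with SE 0.104, adjusted p = 0.0399; lost without Bach2 Tfh replicate 1, either Bach2 non-Tfh library or either EV non-Tfh library, adjusted p = 0.0503 to 0.238). Zbp1, a sensor of left-handed nucleic acid, was lower in Tfh cells with Bach2 (-0.34 with SE 0.112, adjusted p = 0.043; lost without either Bach2 Tfh library, either Bach2 non-Tfh library or either EV non-Tfh library, adjusted p = 0.0507 to 0.142) and was at -0.30 with SE 0.111, adjusted p = 0.0765 with EV, and the interaction missed the threshold (-0.04 with SE 0.158, adjusted p = 0.998). Eif2ak2 (PKR), which halts translation on double-stranded RNA, averaged 23.2 ± 4.26 CPM in Bach2 Tfh and 30.2 ± 3.04 CPM in EV Tfh cells (SD, n = 2 each) and passed in no comparison.

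The oligoadenylate synthetase (OAS) genes held the largest averaged fall among the members, that of Oasl2. They make, or resemble enzymes that make, the messenger that activates ribonuclease L. Oasl2, an OAS-like protein with ubiquitin-like domains (chromosome 5, 114896936 to 114912234, plus strand), had 20.2 and 15.8 CPM in Bach2 Tfh cells, against 33 and 41.1 CPM in EV Tfh cells. In non-Tfh cells it had 28.2 and 22.3 CPM with Bach2, against 49.1 and 44.7 CPM with EV. Bach2 libraries lay below EV libraries in both cell types with no overlap, and Oasl2 fell in Tfh (-1.03 with SE 0.174, adjusted p = 0.011), in non-Tfh (-0.90 with SE 0.167, adjusted p = 0.0207) and averaged (-0.97 with SE 0.12, adjusted p = 0.000958), to 0.512 times the EV level. Without EV Tfh replicate 2 or Bach2 Tfh replicate 2 its adjusted p in Tfh cells was 0.107 and 0.0996, and in non-Tfh cells it was 0.127 to 0.209 without either EV library or Bach2 replicate 2. Its window held neither an ISRE nor a GAS match.

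Oas3 (chromosome 5, 120753098 to 120777661, minus strand) had 108 and 123 CPM in Bach2 Tfh cells, against 151 and 150 CPM in EV Tfh cells. Its non-Tfh levels were 133 and 167 CPM with Bach2, against 243 and 225 CPM with EV. The EV non-Tfh libraries stood above the other 6, and Bach2 was below EV without overlap in each cell type. Oas3 fell in non-Tfh cells (-0.64 with SE 0.108, adjusted p = 0.0135) and averaged (-0.51 with SE 0.0774, adjusted p = 0.00333), and in Tfh cells was at -0.38 with SE 0.111, adjusted p = 0.103. Between cell types it was lower in Tfh, with EV (-0.64 with SE 0.109, adjusted p = 0.000736) and with Bach2 (-0.38 with SE 0.11, adjusted p = 0.0224). The non-Tfh vector call was lost without either EV library or Bach2 replicate 1 (adjusted p = 0.0729 to 0.159), and the Bach2 cell type call without Bach2 Tfh replicate 1 (0.171) or Bach2 non-Tfh replicate 2 (0.27), or with only the Bach2 groups fitted (0.0549). Oas2, at low counts, had 0.434 and 2.3 CPM in Bach2 Tfh and 2.41 and 1.01 CPM in EV Tfh cells, and 7.42 and 6.27 CPM in Bach2 non-Tfh and 7.2 and 8.79 CPM in EV non-Tfh cells. Its Tfh libraries all lay under its non-Tfh libraries, with log2 differences of -2.17 with SE 0.492, adjusted p = 0.00693 with EV and -2.35 with SE 0.522, adjusted p = 0.00545 with Bach2, the first lost without EV non-Tfh replicate 2 (adjusted p = 0.0559). Oas1a and Oasl1 passed in no comparison, and all 5 OAS genes were negative in both vector effects.

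Of the IFIT genes, whose proteins bind viral RNA, Ifit3 fell and Ifit2 followed the cell type. Ifit3 (chromosome 19, 34583531 to 34588731, plus strand) had 53.2 and 39.6 CPM in Bach2 Tfh and 62.7 and 71 CPM in EV Tfh cells, and 66.4 and 55.2 CPM in Bach2 non-Tfh and 82.1 and 75.1 CPM in EV non-Tfh cells. Bach2 lay below EV in both cell types without overlap, and the averaged change was -0.45 with SE 0.102, adjusted p = 0.0234. The same 5 libraries that Dhx58 needed were needed here, with adjusted p = 0.0707 to 0.0988 when 1 of them was left out. Ifit1 had 119 and 91.3 CPM in Bach2 Tfh and 125 and 156 CPM in EV Tfh cells, and 150 and 130 CPM in Bach2 non-Tfh and 181 and 157 CPM in EV non-Tfh cells, also separated by vector in both cell types, and missed the threshold averaged (-0.34 with SE 0.103, adjusted p = 0.0871). Ifit2 had 33.2 and 36.4 CPM in Bach2 Tfh and 31.8 and 35.6 CPM in EV Tfh cells, and 56.2 and 54.3 CPM in Bach2 non-Tfh and 59 and 52.5 CPM in EV non-Tfh cells. It overlapped between vectors and was lower in Tfh cells with EV (-0.73 with SE 0.126, adjusted p = 0.000771) and with Bach2 (-0.67 with SE 0.126, adjusted p = 0.00139). Ifit3 has a close copy in the mouse genome, so the division of its reads is uncertain.

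The MX GTPase genes Mx1 and Mx2 were low and variable between replicates. Mx1 had 7.05 and 10.4 CPM in Bach2 Tfh and 8.63 and 16.6 CPM in EV Tfh cells, and 15.2 and 13.7 CPM in Bach2 non-Tfh and 12.5 and 18 CPM in EV non-Tfh cells, with overlap between vectors in both cell types. Neither gene passed in any comparison, and the averaged log2 fold changes were -0.30 with SE 0.216, adjusted p = 0.48 for Mx1 and -0.23 with SE 0.302, adjusted p = 0.726 for Mx2.

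Isg20, an exonuclease that degrades viral RNA (chromosome 7, 78913424 to 78920396, plus strand), had 64.1 and 60.9 CPM in Bach2 Tfh cells, against 90.6 and 103 CPM in EV Tfh cells. Among non-Tfh cells it had 60.4 and 50.5 CPM with Bach2, against 85.8 and 67.1 CPM with EV. Bach2 was lower without overlap in both cell types. It fell in Tfh cells (-0.63 with SE 0.133, adjusted p = 0.0283) and averaged (-0.55 with SE 0.0946, adjusted p = 0.00658), and was at -0.47 with SE 0.134, adjusted p = 0.175 in non-Tfh cells. The Tfh call was lost without EV Tfh replicate 2 (adjusted p = 0.24) or either Bach2 Tfh library (0.0599 and 0.162). Samhd1, which hydrolyses deoxynucleotides and had the most counts of the nucleotide enzymes, had 440 and 425 CPM in Bach2 Tfh and 379 and 455 CPM in EV Tfh cells, and 463 and 480 CPM in Bach2 non-Tfh and 507 and 552 CPM in EV non-Tfh cells. It missed the threshold for the vector (-0.06 with SE 0.0651, adjusted p = 0.679 averaged) and was lower in the Tfh libraries with EV (-0.34 with SE 0.0922, adjusted p = 0.0154), a call lost without EV Tfh replicate 1 (0.195) or EV non-Tfh replicate 2 (0.158). Rsad2 (viperin), which makes a chain-terminating nucleotide, had 57.3 and 33.8 CPM in Bach2 Tfh and 50.8 and 56.7 CPM in EV Tfh cells, and 29.7 and 25.5 CPM in Bach2 non-Tfh and 43.6 and 37.4 CPM in EV non-Tfh cells. With Bach2 it was higher in the Tfh libraries (0.73 with SE 0.215, adjusted p = 0.031; lost without Bach2 Tfh replicate 1, either Bach2 non-Tfh library or either EV Tfh library, adjusted p = 0.0515 to 0.273). Cmpk2, its neighbour on chromosome 12 and a nucleotide kinase, was lower in Tfh cells with EV (-0.31 with SE 0.106, adjusted p = 0.0466; lost without either Bach2 non-Tfh library, either EV Tfh library or either EV non-Tfh library, adjusted p = 0.0532 to 0.349).

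Isg15 fell among 7 genes of protein modification. Isg15, a ubiquitin-like protein that is attached to other proteins (chromosome 4, 156199424 to 156200818, minus strand), had 65.3 and 45.1 CPM in Bach2 Tfh and 77.1 and 81.1 CPM in EV Tfh cells, and 51.7 and 49.4 CPM in Bach2 non-Tfh and 67.6 and 57.9 CPM in EV non-Tfh cells. Bach2 lay below EV without overlap in each cell type, and replicate 1 of Bach2 Tfh was close to the EV non-Tfh libraries. The averaged change was -0.41 with SE 0.107, adjusted p = 0.0419, and leaving out any library but Bach2 Tfh replicate 1 gave adjusted p = 0.0617 to 0.164. Usp18, which removes Isg15 and restrains the type I receptor, had 46.9 and 33.5 CPM in Bach2 Tfh and 50.1 and 64.3 CPM in EV Tfh cells, and 64.6 and 58.8 CPM in Bach2 non-Tfh and 73.7 and 69.2 CPM in EV non-Tfh cells. It missed the threshold for the vector (-0.36 with SE 0.112, adjusted p = 0.0859 averaged) and was lower in the Tfh libraries with Bach2 (-0.62 with SE 0.16, adjusted p = 0.0128), which was lost without Bach2 Tfh replicate 2 (adjusted p = 0.102) or Bach2 non-Tfh replicate 1 (0.0749). Parp9, a poly(ADP-ribose) polymerase family member that pairs with the ligase Dtx3l, had 211 and 219 CPM in Bach2 Tfh and 213 and 226 CPM in EV Tfh cells, and 187 and 189 CPM in Bach2 non-Tfh and 203 and 206 CPM in EV non-Tfh cells and passed in no comparison. Dtx3l was lower in Tfh cells with EV (-0.29 with SE 0.0844, adjusted p = 0.0236; lost without either EV Tfh library or either EV non-Tfh library, adjusted p = 0.0903 to 0.115) and with Bach2 (-0.29 with SE 0.0842, adjusted p = 0.0196; lost without Bach2 Tfh replicate 1 or Bach2 non-Tfh replicate 2, adjusted p = 0.111 to 0.196). Parp9 and Dtx3l overlap on opposite strands, so their reads cannot be kept fully apart. The averaged log2 fold change of Parp14, the highest of the 54 members, missed the threshold (0.24 with SE 0.0797, adjusted p = 0.103), and the ubiquitin ligases Trim25 and Trim30a passed in no comparison.

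The 4 Schlafen genes had positive vector effects in Tfh cells (0.10 to 0.31), of which 0 passed. Slfn2, which keeps T cells quiescent, had 1067 and 1045 CPM in Bach2 Tfh and 886 and 990 CPM in EV Tfh cells, and 895 and 896 CPM in Bach2 non-Tfh and 880 and 954 CPM in EV non-Tfh cells. Both Bach2 Tfh libraries were above the 6 others, and with Bach2 Slfn2 was higher in the Tfh libraries (0.24 with SE 0.0809, adjusted p = 0.0456), though without any of 6 libraries, all but the EV Tfh ones, adjusted p was 0.0577 to 0.168, and with only the Bach2 groups fitted it was 0.0572. Slfn8 had 71.1 and 73.1 CPM in Bach2 Tfh and 59.1 and 75.5 CPM in EV Tfh cells, and 127 and 143 CPM in Bach2 non-Tfh and 127 and 122 CPM in EV non-Tfh cells. It was lower in all Tfh than in all non-Tfh libraries (-0.89 with SE 0.116, adjusted p = 7.53e-05 with EV, -0.90 with SE 0.116, adjusted p = 6.28e-05 with Bach2), and overlapped between vectors. Slfn1 was lower in Tfh cells with EV (-0.35 with SE 0.106, adjusted p = 0.032; lost without EV Tfh replicate 1 or either EV non-Tfh library, adjusted p = 0.0781 to 0.335), and Slfn5 passed in no comparison. Slfn8 has close copies, so the division of its reads is uncertain.

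Of the surface proteins, Ly6a fell in both cell types. Ly6a (Sca-1), a lipid-anchored protein of activated T cells and stem cells (chromosome 15, 74994877 to 74998031, minus strand), had 955 and 878 CPM in Bach2 Tfh cells, against 1202 and 1249 CPM in EV Tfh cells. Its levels in non-Tfh cells were 1007 and 1074 CPM with Bach2, against 1490 and 1430 CPM with EV. The vectors did not overlap in either cell type. Its log2 fold change was -0.42 with SE 0.0786, adjusted p = 0.0178 in Tfh cells, -0.49 with SE 0.0785, adjusted p = 0.00949 in non-Tfh cells and -0.45 with SE 0.0556, adjusted p = 0.000858 averaged. Adjusted p in Tfh cells was 0.131 and 0.13 without EV or Bach2 replicate 2, and in non-Tfh cells 0.0729 to 0.11 without either EV library or Bach2 replicate 1. With EV, Ly6a was lower in Tfh cells (-0.25 with SE 0.0784, adjusted p = 0.0326), but not without any EV library or Bach2 non-Tfh replicate 2 (0.0502 to 0.177). Ly6e, its neighbour on chromosome 15 and the member with the most counts, had 1816 and 1651 CPM in Bach2 Tfh and 1892 and 1784 CPM in EV Tfh cells, and 1820 and 1923 CPM in Bach2 non-Tfh and 1952 and 1956 CPM in EV non-Tfh cells and passed in no comparison. Bst2 (tetherin), which holds budding virions at the membrane, had 36.5 and 38.7 CPM in Bach2 Tfh and 42.4 and 53.3 CPM in EV Tfh cells, and 61.6 and 66.2 CPM in Bach2 non-Tfh and 73.1 and 72 CPM in EV non-Tfh cells. It missed the threshold for the vector (-0.26 with SE 0.0891, adjusted p = 0.102 averaged) and was lower in Tfh cells with EV (-0.60 with SE 0.125, adjusted p = 0.00309), save without EV Tfh replicate 1 (adjusted p = 0.0571), and with Bach2 (-0.77 with SE 0.127, adjusted p = 0.000536).

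Rtp4, a chaperone of receptors on their way to the surface (chromosome 16, 23520291 to 23614222, plus strand), had 89 and 67.9 CPM in Bach2 Tfh cells, against 101 and 118 CPM in EV Tfh cells. The non-Tfh libraries held 74.7 and 66.4 CPM with Bach2, against 110 and 100 CPM with EV. Bach2 was lower without overlap in both, at -0.47 with SE 0.131, adjusted p = 0.091 in Tfh cells and -0.58 with SE 0.132, adjusted p = 0.0669 in non-Tfh cells, and the averaged fall was -0.53 with SE 0.0931, adjusted p = 0.00755. Ifi27l2a, the member with the highest level per kilobase of exon (mean 2860 CPM per kb, ahead of Ly6a at 963), had 1570 and 1248 CPM in Bach2 Tfh and 1578 and 1426 CPM in EV Tfh cells, and 1241 and 1052 CPM in Bach2 non-Tfh and 1413 and 1064 CPM in EV non-Tfh cells. Its libraries overlapped between vectors in both cell types and it passed in no comparison. Ifi35, Ifi44, Xaf1 and Sp100 also passed in none.

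**Figure D3:**
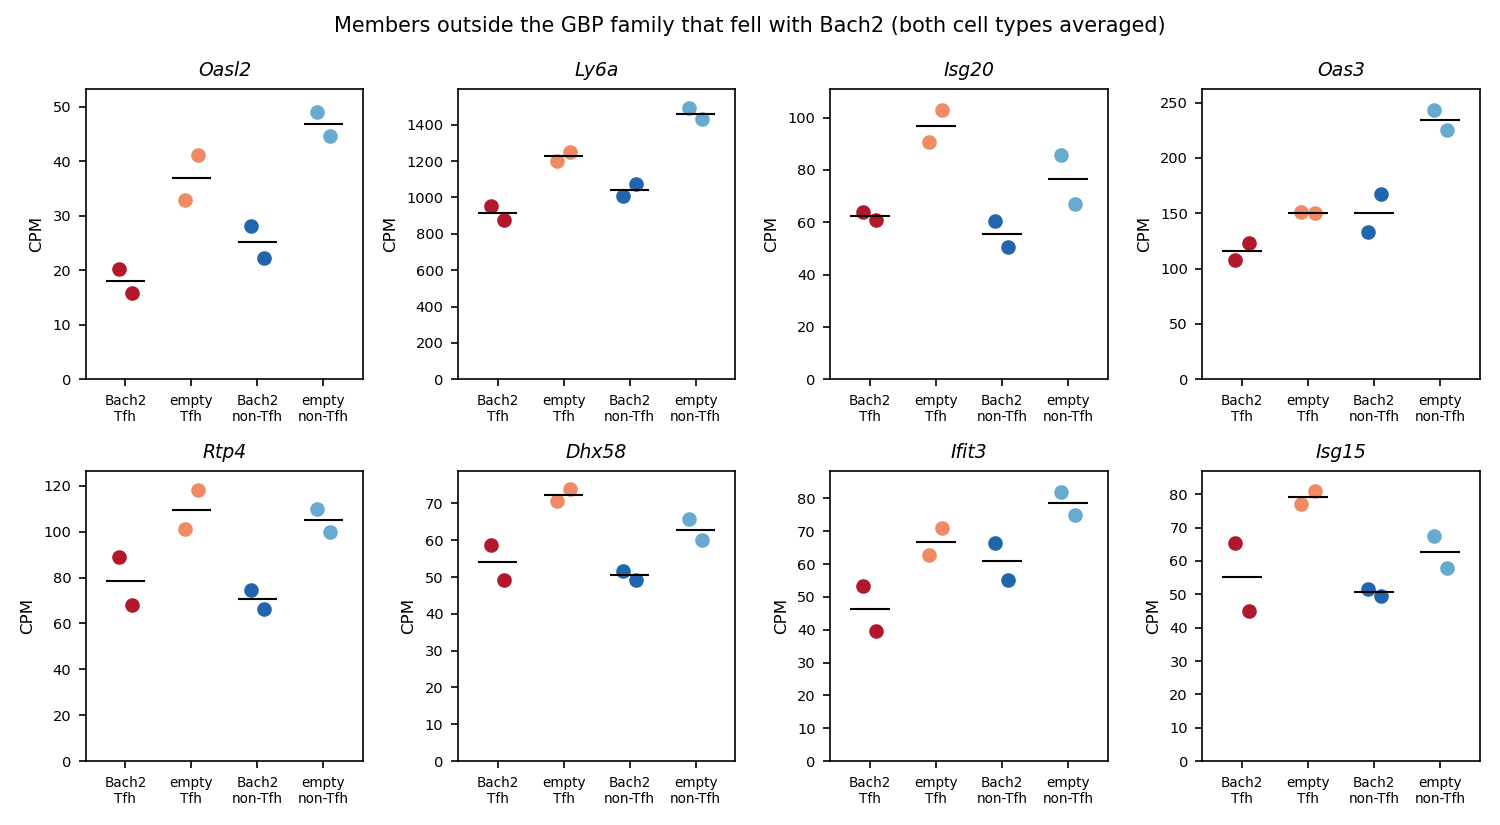
CPM of the 8 members outside the GBP family that fell with both cell types averaged, in Bach2 Tfh, EV Tfh (labelled empty), Bach2 non-Tfh and EV non-Tfh libraries (points, with a line at the mean of 2). In every panel both Bach2 points lie below both EV points of the same cell type, as with Oasl2 at 20.2 and 15.8 CPM in Bach2 Tfh against 33 and 41.1 CPM in EV Tfh cells.

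The GBP genes, GTPases that attack the vacuoles of intracellular pathogens, differed by their place in the genome, a split seen in these values and not tested. Gbp2, Gbp3 and Gbp7 lie on chromosome 3 and fell with Bach2 when averaged, and Gbp4, Gbp8 and Gbp9 lie on chromosome 5 and did not pass for the vector. Another window of Gbp3 (chr3:142560106-142560405), not printed, had no ISRE, GAS or TGANTCA match. For each of these chromosome 3 genes a window with an ISRE match is shown: Gbp2 (chr3:142620413-142620712), Gbp3 (chr3:142559794-142560093) and Gbp7 (chr3:142530086-142530385), all on the plus strand and with capitals as above.
Gbp2: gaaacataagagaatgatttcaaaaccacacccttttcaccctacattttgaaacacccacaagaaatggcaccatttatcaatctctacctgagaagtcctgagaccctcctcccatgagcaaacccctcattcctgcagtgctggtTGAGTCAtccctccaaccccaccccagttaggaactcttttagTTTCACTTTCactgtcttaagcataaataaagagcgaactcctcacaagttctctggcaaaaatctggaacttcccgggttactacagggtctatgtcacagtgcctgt
Gbp3: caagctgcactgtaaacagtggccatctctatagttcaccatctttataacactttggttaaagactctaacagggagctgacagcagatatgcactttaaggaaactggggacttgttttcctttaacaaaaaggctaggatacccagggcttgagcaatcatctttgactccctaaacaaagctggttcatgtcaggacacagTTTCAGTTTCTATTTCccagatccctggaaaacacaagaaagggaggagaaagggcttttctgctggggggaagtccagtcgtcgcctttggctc
Gbp7: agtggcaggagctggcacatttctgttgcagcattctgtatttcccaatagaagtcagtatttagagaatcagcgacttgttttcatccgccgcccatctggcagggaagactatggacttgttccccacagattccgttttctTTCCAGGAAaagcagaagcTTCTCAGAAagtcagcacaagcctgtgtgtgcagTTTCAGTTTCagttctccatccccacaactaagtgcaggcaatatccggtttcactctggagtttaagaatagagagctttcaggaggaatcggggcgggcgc
The ISRE match begins 59 bases before the start in Gbp2, 45 and 39 bases in Gbp3, where the pair shares 4 bases, and 53 bases in Gbp7. Gbp7 has GAS matches 106 and 87 bases before the start, and Gbp2 has a TGANTCA at 102 bases. All 4 GBP genes with a window, Gbp5 included, held an ISRE match, as did all 3 IRG genes with one, beside 14 of 32 type I interferon members (43.8%).

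Gbp3 (142560026 to 142573209) had 22 and 23.3 CPM in Bach2 Tfh cells, against 26.6 and 41.4 CPM in EV Tfh cells. Its non-Tfh libraries had 42.6 and 42.3 CPM with Bach2, against 72.1 and 75.6 CPM with EV. Bach2 lay below EV without overlap in both cell types. Gbp3 fell in non-Tfh cells (-0.80 with SE 0.163, adjusted p = 0.0372) and averaged (-0.69 with SE 0.12, adjusted p = 0.00733), and was at -0.58 with SE 0.177, adjusted p = 0.122 in Tfh cells. The non-Tfh call was lost when any of the 4 non-Tfh libraries was left out (adjusted p = 0.13 to 0.31). Gbp2 (142620602 to 142638008) had 76.3 and 73.2 CPM in Bach2 Tfh and 87.1 and 110 CPM in EV Tfh cells, and 141 and 133 CPM in Bach2 non-Tfh and 178 and 190 CPM in EV non-Tfh cells, again without overlap between vectors in either cell type. Its averaged change was -0.41 with SE 0.0763, adjusted p = 0.00922, and adjusted p was 0.0512 without EV non-Tfh replicate 2. Gbp7 (142530342 to 142550149) had 73.8 and 65.2 CPM in Bach2 Tfh and 66.7 and 85.2 CPM in EV Tfh cells, and 160 and 168 CPM in Bach2 non-Tfh and 220 and 237 CPM in EV non-Tfh cells. The vectors overlapped in Tfh cells and not in non-Tfh cells, and the averaged change was -0.30 with SE 0.0793, adjusted p = 0.0424, at adjusted p = 0.0815 to 0.189 without any library but EV Tfh replicate 1 or Bach2 Tfh replicate 1 and at 0.054 by limma-voom.

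Between cell types the same 3 genes were lower in Tfh cells, Gbp7 most. Gbp7 differed by -1.59 with SE 0.113, adjusted p = 4.07e-07 with EV and -1.24 with SE 0.114, adjusted p = 3.43e-06 with Bach2, Gbp3 by -1.13 with SE 0.166, adjusted p = 0.000248 and -0.91 with SE 0.174, adjusted p = 0.00176, and Gbp2 by -0.90 with SE 0.107, adjusted p = 3.38e-05 and -0.87 with SE 0.109, adjusted p = 4.94e-05. Gbp8 on chromosome 5 had 23.3 and 25.8 CPM in Bach2 Tfh and 21.8 and 21.6 CPM in EV Tfh cells, and 45.6 and 37.8 CPM in Bach2 non-Tfh and 33.5 and 41.5 CPM in EV non-Tfh cells, and was lower in Tfh cells with EV (-0.79 with SE 0.155, adjusted p = 0.0022) and with Bach2 (-0.76 with SE 0.153, adjusted p = 0.00222). Gbp4 had 149 and 168 CPM in Bach2 Tfh and 148 and 163 CPM in EV Tfh cells, and 196 and 190 CPM in Bach2 non-Tfh and 193 and 223 CPM in EV non-Tfh cells. It was lower in Tfh cells as well, with EV (-0.42 with SE 0.0972, adjusted p = 0.00685) and with Bach2 (-0.29 with SE 0.0972, adjusted p = 0.046), the EV call lost without EV Tfh replicate 1 (adjusted p = 0.08) or EV non-Tfh replicate 2 (0.117) and the Bach2 call without EV non-Tfh replicate 1, Bach2 Tfh replicate 1 or either Bach2 non-Tfh library (0.0503 to 0.274). The Bach2 call was also lost by DESeq2 (adjusted p = 0.0676) and with only the Bach2 groups fitted (0.0566). Gbp9 went the other way, with 192 and 200 CPM in Bach2 Tfh and 175 and 154 CPM in EV Tfh cells, and 136 and 128 CPM in Bach2 non-Tfh and 143 and 124 CPM in EV non-Tfh cells. It was higher in Tfh cells with EV (0.30 with SE 0.0969, adjusted p = 0.0373) and with Bach2 (0.57 with SE 0.0966, adjusted p = 0.000642), the first lost without EV Tfh replicate 1 (adjusted p = 0.281) or EV non-Tfh replicate 2 (0.316) and by DESeq2 (0.0665). Gbp4, Gbp8 and Gbp9 share annotated sequence on the same strand, and GBP genes are close copies of each other, so how reads were divided among them is uncertain.

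**Figure D4:**
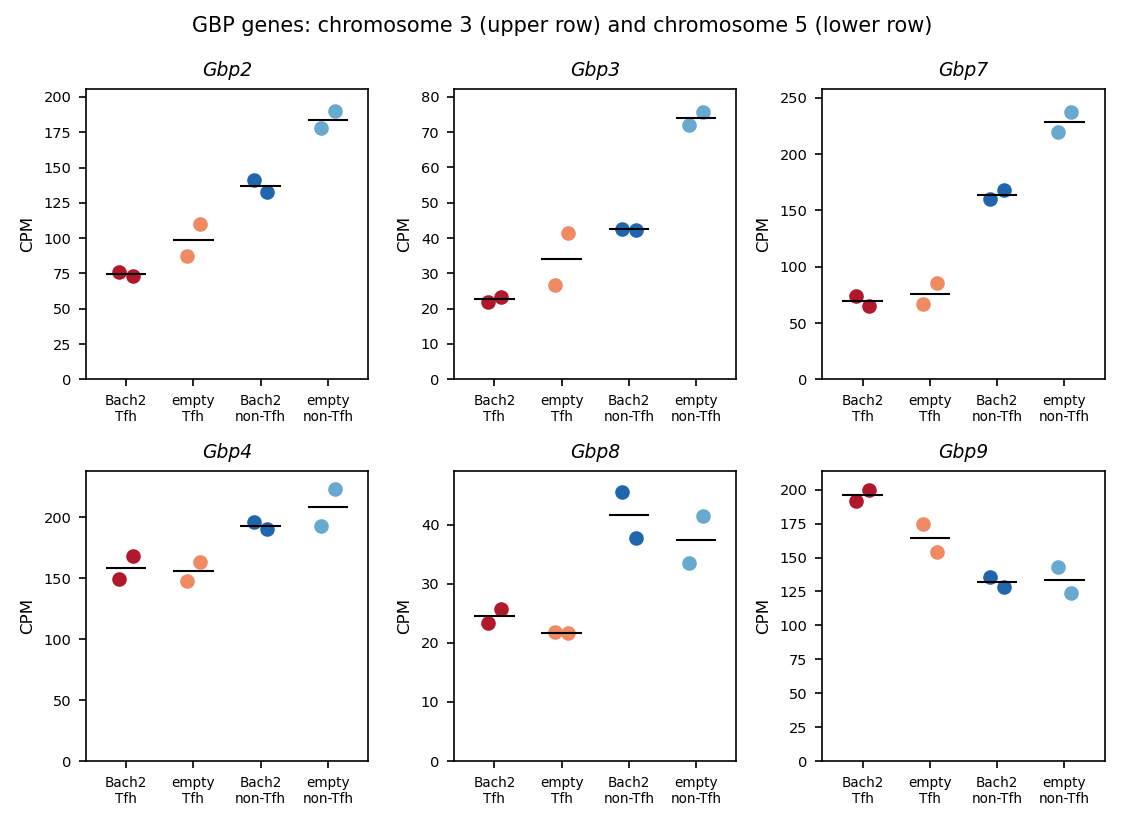
CPM of the 6 GBP genes in Bach2 Tfh, EV Tfh (labelled empty), Bach2 non-Tfh and EV non-Tfh libraries (points, with a line at the mean of 2). The chromosome 3 genes (upper row) are highest in EV non-Tfh cells, such as Gbp7 at 220 and 237 CPM, and Gbp9 is highest in Bach2 Tfh cells at 192 and 200 CPM.

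The 4 IRG genes, GTPases of vacuole defence, did not pass for the vector, with averaged log2 fold changes from -0.25 (Irgm1, adjusted p = 0.0536) to -0.01 (Igtp). Igtp had 331 and 317 CPM in Bach2 Tfh and 273 and 348 CPM in EV Tfh cells, and 389 and 404 CPM in Bach2 non-Tfh and 385 and 453 CPM in EV non-Tfh cells. Irgm2 had 63.9 and 67.6 CPM in Bach2 Tfh and 63.7 and 65.5 CPM in EV Tfh cells, and 67.6 and 86.9 CPM in Bach2 non-Tfh and 89.3 and 95.6 CPM in EV non-Tfh cells. With EV both were lower in the Tfh libraries, Igtp at -0.43 with SE 0.111, adjusted p = 0.013 and Irgm2 at -0.52 with SE 0.121, adjusted p = 0.00686, and neither passed with Bach2 (-0.29 with SE 0.111, adjusted p = 0.073 and -0.23 with SE 0.121, adjusted p = 0.189). Without EV Tfh replicate 1 or EV non-Tfh replicate 2, adjusted p was 0.154 and 0.167 for Igtp and 0.0542 and 0.076 for Irgm2. Iigp1 passed in no comparison. Igtp and Irgm2 overlap on the same strand, so their reads may be shared. The difference between the cell type effects with EV and with Bach2, which is the interaction, was 0.14 (SE 0.157) for Igtp and 0.28 (SE 0.171) for Irgm2, neither past the threshold (adjusted p = 0.998 each).

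Upstream of the members, 9 interferon genes were listed, and 1 of them, that of interferon-gamma, had a measurable level. Interferon genes outside this list, other Ifna genes among them, were not looked at. Ifng had 7.6 and 13.5 CPM in Bach2 Tfh cells, against 19.4 and 18.1 CPM in EV Tfh cells. Across non-Tfh cells it had 32.3 and 35.5 CPM with Bach2, against 93 and 70.4 CPM with EV. It was higher in EV non-Tfh than in the other 6 libraries, and Bach2 lay below EV in both cell types. Ifng fell in non-Tfh cells (-1.27 with SE 0.198, adjusted p = 0.0128) and averaged (-1.05 with SE 0.154, adjusted p = 0.00422), was at -0.84 with SE 0.238, adjusted p = 0.106 in Tfh cells, and was lower in the Tfh libraries with EV (-2.12 with SE 0.209, adjusted p = 1.96e-05) and with Bach2 (-1.69 with SE 0.228, adjusted p = 0.000208). The non-Tfh vector call was lost without either Bach2 non-Tfh library or EV non-Tfh replicate 1, adjusted p = 0.0724 to 0.114. Of the 8 other ligand genes listed, Ifnb1, Ifna1, Ifna2, Ifna4, Ifne, Ifnl2 and Ifnl3 had 0 counts in every library, which allows up to 0.382 CPM per library, and Ifnk had 1 count in 1 library. Whether the level of Ifng bears on that of the members was not tested.

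Of 7 receptor and Janus kinase genes, 1 rose with the vector and 0 fell in Tfh cells, and 0 passed in non-Tfh cells. Jak1, the kinase of both pathways, had 1734 and 1824 CPM in Bach2 Tfh and 1461 and 1387 CPM in EV Tfh cells, and 1558 and 1629 CPM in Bach2 non-Tfh and 1492 and 1521 CPM in EV non-Tfh cells. It rose in Tfh cells (0.32 with SE 0.0752, adjusted p = 0.0479) and averaged (0.20 with SE 0.0531, adjusted p = 0.0427), without overlap of the vectors in either cell type. The Tfh call was lost when any of the 8 libraries was left out (adjusted p = 0.0569 to 0.315), and the averaged call was lost without Bach2 Tfh replicate 2, either Bach2 non-Tfh library, EV Tfh replicate 2 or either EV non-Tfh library, adjusted p = 0.0712 to 0.19. Ifngr1, the ligand-binding chain for interferon-gamma, had 88 and 130 CPM in Bach2 Tfh and 90.5 and 108 CPM in EV Tfh cells, and 231 and 329 CPM in Bach2 non-Tfh and 313 and 334 CPM in EV non-Tfh cells. Its Tfh libraries were lower with EV (-1.71 with SE 0.233, adjusted p = 0.00241) and with Bach2 (-1.36 with SE 0.231, adjusted p = 0.0057). Ifnar2 (0.93 with SE 0.0956, adjusted p = 9.12e-06) and Jak2 (0.78 with SE 0.0982, adjusted p = 5.76e-05) were higher in Tfh cells with EV, and likewise with Bach2 (0.76 with SE 0.0945, adjusted p = 4.96e-05 and 0.81 with SE 0.0981, adjusted p = 3.82e-05). Ifnar1, Ifngr2 and Tyk2 passed in no comparison.

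Of 8 STAT genes and brakes, Socs1 fell with Bach2 in Tfh cells and averaged. Socs1, which inhibits Janus kinases and is itself induced by interferons, had 82.9 and 84.8 CPM in Bach2 Tfh and 126 and 129 CPM in EV Tfh cells, and 51.8 and 53.5 CPM in Bach2 non-Tfh and 57.3 and 74.6 CPM in EV non-Tfh cells. The change was -0.60 with SE 0.116, adjusted p = 0.0198 in Tfh cells, -0.32 with SE 0.121, adjusted p = 0.352 in non-Tfh cells and -0.46 with SE 0.0837, adjusted p = 0.00823 averaged, without overlap of the vectors in either cell type. The Tfh call was lost without either Bach2 Tfh library or EV Tfh replicate 2, adjusted p = 0.0562 to 0.139. Socs1 was higher in the Tfh libraries (0.95 with SE 0.117, adjusted p = 4.85e-05 with EV, 0.67 with SE 0.12, adjusted p = 0.000946 with Bach2). Cish, a cytokine-induced inhibitor, was lower in Tfh cells, at -2.74 with SE 0.243, adjusted p = 2.86e-06 with EV and -3.06 with SE 0.259, adjusted p = 2.04e-06 with Bach2. Of 8 sensing adaptors measured, Ikbke, a kinase upstream of interferon production, rose averaged (0.39 with SE 0.0728, adjusted p = 0.00962; lost without EV non-Tfh replicate 2, adjusted p = 0.0517), and 0 passed in Tfh or in non-Tfh cells alone.

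**Figure D5:**
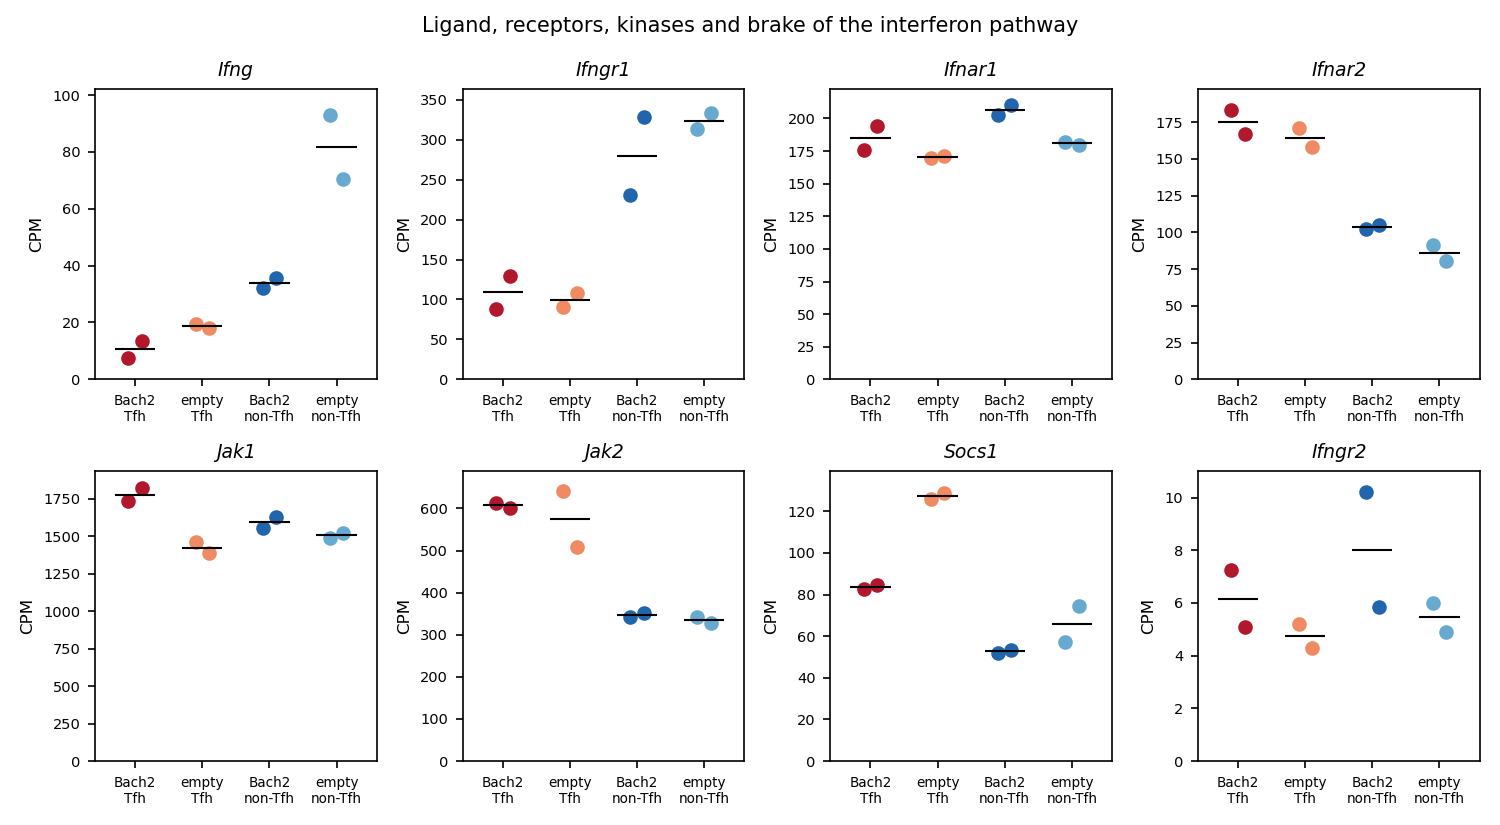
CPM of genes that send, receive or restrain interferon signals in Bach2 Tfh, EV Tfh (labelled empty), Bach2 non-Tfh and EV non-Tfh libraries (points, with a line at the mean of 2). Ifng is highest in EV non-Tfh cells (93 and 70.4 CPM), Ifngr1 is lower and Ifnar2 and Jak2 are higher in Tfh than in non-Tfh cells, and Socs1 is highest in EV Tfh cells (126 and 129 CPM).

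Other features of the libraries moved with the vector or the cell type. Tfh markers (5 genes) summed to 1501 to 1889 CPM in Bach2 Tfh, 1865 to 2335 CPM in EV Tfh, 255 to 317 CPM in Bach2 non-Tfh and 388 to 446 CPM in EV non-Tfh libraries. All 5 had negative log2 fold changes for the vector in both cell types (median -0.30 in Tfh and -0.56 in non-Tfh cells), and 2 fell averaged, Bcl6 (adjusted p = 0.0136) and Il21 (0.02). The Bcl6 call was lost without EV non-Tfh replicate 2 (adjusted p = 0.083) or Bach2 non-Tfh replicate 2 (0.063), and that of Il21 without either EV non-Tfh library or Bach2 Tfh replicate 2 (0.0705 to 0.083). Of 10 proliferation genes, 8 fell with Bach2 in Tfh cells (median log2 fold change -0.69), 0 in non-Tfh cells (-0.17) and 7 averaged (-0.44). Of all tested genes, 1.16%, 0.619% and 2.9% fell, in the same order. The interaction of vector and cell type passed for 0 of the 10 proliferation genes. The Tfh count was 2 without EV Tfh replicate 2 and 5 without Bach2 Tfh replicate 2. The B cell list of 7 genes summed to 160 to 189 CPM in Bach2 Tfh, 197 to 235 CPM in EV Tfh, 82.3 to 104 CPM in Bach2 non-Tfh and 127 to 128 CPM in EV non-Tfh libraries. Nearly all of that was Cd22 (77.8 to 230 CPM). Dendritic cell markers, 6 genes with Clec9a at 0 throughout, summed to 3.02 to 3.26 CPM in Bach2 Tfh, 2.31 to 4.68 CPM in EV Tfh, 9.71 to 14.7 CPM in Bach2 non-Tfh and 11 to 14.5 CPM in EV non-Tfh libraries. The 3 NK cell markers, with Ncr1 at 0 throughout, summed to 90.4 to 100 CPM in Bach2 Tfh, 61.8 to 65.3 CPM in EV Tfh, 20 to 24.3 CPM in Bach2 non-Tfh and 11.7 to 22 CPM in EV non-Tfh libraries, nearly all Klrb1c. Macrophage or monocyte markers (6 genes) summed to 9.49 to 17.3 CPM in every group, CD8 T cell markers (2 genes) to 13.3 to 20.4 CPM, and erythroid markers (3 genes, Hbb-bs at 0) to at most 0.242 CPM. Stroma or endothelium markers (4 genes, Pdpn at 0) summed to 177 to 281 CPM, nearly all Pecam1. The part of any of these in the results above was not tested.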

How the data were processed

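The deposited files hold 1 table of raw counts per gene for each of 8 libraries, from 4 groups of 2. RNA was copied with Smart-Seq v4, a method that does not mark strand, and sequenced as paired ends. Per the submitters' processing notes, TopHat2, Bowtie2 and featureCounts were used with the GRCm38/mm10 genome to make the counts. Not given in the sources used here: tool versions, annotation release and the treatment of reads with several matches. Counts of close copies and of overlapping genes are therefore uncertain. The 39179 Ensembl IDs were matched to GENCODE M21 names (37693 matched, and the 1486 others held 0.187% to 0.205% of counts), and gene coordinates come from that annotation of GRCm38.

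Counts were fitted with edgeR 4.0.16 in R 4.3.3: TMM factors (0.985 to 1.01), filterByExpr (minimum count 10, minimum total 15), 1 coefficient per group over all 8 libraries, and robust quasi-likelihood tests with Benjamini-Hochberg adjustment over 11475 genes (adjusted p below 0.05). A call named without a tool comes from this fit. The 6 comparisons were the vector effect in each cell type and averaged, the cell type effect with each vector, and their interaction. Alternatives were RLE size factors, no filter, DESeq2 1.42.0, limma-voom 3.58.1, only the groups compared, a replicate block, and each library left out in turn. The fitting code was tested on simulated data. Where a group has 1 library left, that library is assumed to vary like the others.

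The members, the other gene lists and the alternatives were chosen with earlier results of these data known. Full values are given for members past the threshold, at most 10 per comparison by adjusted p, for the 4 factors and for the member with the highest mean CPM of each role, and single values for others as examples. Promoter windows come from RefSeq (GRCm38.p6). Floors cover counting error only. Standard errors come from the fit and take in the spread between libraries.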

Additional observations from a re-analysis of the deposited data

How the results depend on the processing

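The counts of members called were recomputed under each alternative. Among the members given full values, no call changed direction in any setting run. For the calls of Ddx58, Zbp1, Rsad2, Cmpk2, Dtx3l and Slfn1, direction under the alternatives was not checked. Without the filter on low counts, 13 members were called for the vector in Tfh cells (12 lower), 11 in non-Tfh cells (all lower), 19 averaged (17 lower) and 26 between Bach2 Tfh and Bach2 non-Tfh cells (20 lower). Over all genes that setting called 736, 332, 1255 and 3120, in the same order, against 196, 100, 605 and 2796 with the filter. Fitting only the groups compared gave 7 members in non-Tfh cells, all lower, among 110 genes called. A replicate block gave 9 members in Tfh cells, 7 in non-Tfh cells and 14 averaged, all of them lower, among 473, 207 and 975 genes called. The shared replicate numbers were not taken as pairs, because the labels do not say what they mark. The correlation of deviations between groups was -0.00413 to 0.24, highest between the cell types of the same vector (0.208 with EV, 0.24 with Bach2). Pairing within a vector was not tested. Leaving out 1 library gave 0 to 6 members in Tfh cells, 0 to 6 in non-Tfh cells, 6 to 17 averaged, 8 to 21 between EV Tfh and EV non-Tfh cells and 11 to 19 between Bach2 Tfh and Bach2 non-Tfh cells. The cause of these shifts was not tested. The number of all genes called with a library left out is not given here. Whether a shift in the members goes beyond a general gain or loss of calls was therefore not examined. The interaction gave 0 members in every setting. With 2 libraries a group and a biological coefficient of variation of 9.89%, the fit leaves 4 residual degrees of freedom, and members of few counts, such as Oas2, Mx2 and Ifi44, are poorly resolved.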

Other observations

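The p200 family, interferon-inducible DNA sensors clustered on chromosome 1, moved both ways with the Bach2 vector. Of 14 listed genes, 12 were measured and 10 tested, and averaged over both cell types 2 fell and 2 rose, beside 2.9% and 2.37% of all tested genes. Ifi204 had 37.5 and 30.7 CPM in Bach2 Tfh and 83.6 and 120 CPM in EV Tfh cells, and 45 and 46.8 CPM in Bach2 non-Tfh and 133 and 161 CPM in EV non-Tfh cells, without overlap of the vectors. It fell in Tfh cells (-1.57 with SE 0.177, adjusted p = 0.00386), in non-Tfh cells (-1.68 with SE 0.171, adjusted p = 0.00158) and averaged (-1.62 with SE 0.123, adjusted p = 0.000139). Ifi211, at low counts, had 2.82 and 2.17 CPM in Bach2 Tfh and 8.23 and 8.48 CPM in EV Tfh cells, and 10 and 5.04 CPM in Bach2 non-Tfh and 12 and 11.2 CPM in EV non-Tfh cells and fell in Tfh cells (-1.73 with SE 0.342, adjusted p = 0.0207; lost without Bach2 Tfh replicate 2 or EV Tfh replicate 2, adjusted p = 0.123 to 0.152) and averaged (-1.18 with SE 0.224, adjusted p = 0.00997). Ifi208 (0.28 with SE 0.0733, adjusted p = 0.0402) and Ifi209 (0.26 with SE 0.0686, adjusted p = 0.0417) rose. The Ifi208 call was lost without any library but Bach2 Tfh replicate 1 (adjusted p = 0.0539 to 0.186), and that of Ifi209 without any but Bach2 Tfh replicate 1 or EV Tfh replicate 2 (adjusted p = 0.0531 to 0.173). Between cell types with EV, 5 of the 10 tested p200 genes were lower in Tfh cells, beside 11.3% of all tested genes. The 1 higher gene, beside 10.6%, was Aim2, which starts the inflammasome on cytosolic DNA (0.56 with SE 0.149, adjusted p = 0.0154). That call was lost without either EV Tfh library or EV non-Tfh replicate 1. These genes are close copies, so the division of reads among them is uncertain.

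Of 17 genes of MHC class I presentation, 1 rose and 1 fell averaged over both cell types, beside 2.37% and 2.9% of all tested genes. H2-Q6, a nonclassical class I gene, had 177 and 208 CPM in Bach2 Tfh and 159 and 155 CPM in EV Tfh cells, and 319 and 353 CPM in Bach2 non-Tfh and 240 and 225 CPM in EV non-Tfh cells. It rose in non-Tfh cells (0.53 with SE 0.0927, adjusted p = 0.0153; lost without Bach2 non-Tfh replicate 2 or either EV non-Tfh library, adjusted p = 0.0989 to 0.193) and averaged (0.41 with SE 0.0662, adjusted p = 0.00422), and was lower in Tfh cells with EV (-0.57 with SE 0.0942, adjusted p = 0.000542) and with Bach2 (-0.80 with SE 0.0934, adjusted p = 2.69e-05). Psme2, a part of the proteasome activator, had 370 and 324 CPM in Bach2 Tfh and 402 and 436 CPM in EV Tfh cells, and 366 and 345 CPM in Bach2 non-Tfh and 419 and 454 CPM in EV non-Tfh cells and fell averaged (-0.28 with SE 0.0631, adjusted p = 0.02; lost without Bach2 Tfh replicate 2, Bach2 non-Tfh replicate 2, EV Tfh replicate 2 or EV non-Tfh replicate 2, adjusted p = 0.0776 to 0.114). The H2-Q genes are close copies of each other.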
